A study of Homo sapiens with 24 samples.

Results

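The genes described here are 34 genes of cholesterol and fatty acid synthesis and of its control, chosen by name from the pathway. All 34 were among the 21235 genes tested. They comprised 7 genes of the mevalonate branch, 11 that lead from squalene to cholesterol, 6 of its control and sterol transport, 8 of fatty acid synthesis and desaturation, and 2 of sterol efflux. Cells build cholesterol from acetyl-CoA by way of mevalonate, farnesyl diphosphate, squalene and lanosterol, and build fatty acids from the same acetyl-CoA. Both routes are switched on by the sterol regulatory element-binding proteins (SREBPs), transcription factors that SCAP carries out of the endoplasmic reticulum for cleavage when membrane sterol is low and that INSIG proteins hold back when it is high. The brain makes its own cholesterol, since that of the blood does not cross the blood-brain barrier, and growing neurons need it for membranes, axons and synapses.

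RNA came from LUHMES, a conditionally immortalized human mesencephalic cell line that was turned into dopaminergic neurons as aggregates in a shaken culture with cAMP, GDNF and tetracycline. On day 7, rotenone, an inhibitor of mitochondrial complex I, was given at 50 nM for 12 h, at 50 nM for 24 h or at 100 nM for 24 h, and control aggregates received DMSO in the amount that came with 100 nM. Aggregates were harvested right after exposure (day 8) or 7 days after the rotenone was washed out (day 15), so that 8 groups of 3 wells were measured on 24 single-colour arrays. All groups were of the same line and medium, and each day had a single DMSO group, with which the 12 h and the 24 h exposures were both compared. The comparisons of a day therefore share their control arrays, and the 12 h group had no DMSO control of its own length.

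Arrays had between 50.9% and 82.4% of spots well above background. The replicate numbers of the labels matched the 3 slides, and each group lay at the same place on every slide, so that group and place cannot be told apart. The array of day 15 DMSO replicate 1 carried a scan name that gave 12 h without naming DMSO, and its group rests on its label. The array of 100 nM replicate 3 on day 15 scattered most around its group mean, with a residual standard deviation of 0.45 on the log2 scale over all genes against 0.20 to 0.31 on the others. Over the 34 genes it stood at 0.16, within the 0.07 to 0.19 of the other arrays. The 5 neuronal markers TUBB3, MAP2, SNAP25, SYT1 and STMN2 were well above background on every array, as were TH, SLC6A3, NR4A2 and DDC of the dopaminergic neuron. SLC18A2, the vesicular transporter of dopamine, was well above background on at most 1 array of a group. GFAP and AQP4 of astrocytes and SOX2 and HES1 of precursors were not well above background on any array on day 8. The precursor markers NES, VIM and PAX6 were so on every array, as were MBP and MOG of oligodendrocytes. OLIG2 and the microglial marker TYROBP were so on every array of day 8. ALDH1L1, S100B and GJA1 of astrocytes, MAG of oligodendrocytes and CD68, PTPRC and CX3CR1 of microglia were so on part of those arrays. All 34 genes were well above background on all 24 arrays, none of their spots was saturated and none had a missing value. They were measured by 42 probes, with 1 probe for 27 genes, 2 probes for 6 and 3 probes for 1. Levels are given as normalized log2 intensity of a gene's probes and differences as log2 fold change ± SE, and no level of one gene was set against that of another. A gene was called higher or lower if limma's adjusted p, over all 21235 genes, was under 0.05. In these bulk samples, fewer cells of a type and less RNA per cell cannot be told apart.

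After 24 h of rotenone, part of the sterol synthesis genes were higher on day 8 and the efflux gene ABCA1 was lower. Of the 7 genes of the mevalonate branch, 2 were higher at 50 nM and 3 at 100 nM, and of the 11 from squalene to cholesterol, 7 and 4. At 50 nM, 11 of 34 genes were higher, where 3.65% of all genes were, and 1 was lower, where 4.36% were. At 100 nM, 10 genes were higher against 4.09% of all genes and 1 was lower against 5.44%. A fold change over 1.5 was reached by 6 of the higher genes at 50 nM (1.40% of all genes) and by 4 at 100 nM (1.44%), and by the lower gene at 50 nM (1.42%) but not at 100 nM (2.04%). The median log2 fold change of the 34 genes was 0.26 at 50 nM and 0.27 at 100 nM, and that of all genes was -0.02 in both comparisons. The log2 fold change was positive for 29 and for 30 of the 34 genes, and for 10012 and 9883 of all 21235 genes. The arrays of the groups did not overlap for 17 genes that were higher at 50 nM (12.5% of all genes) and 18 at 100 nM (12.6%), and for 3 that were lower at 50 nM (15.7%) and 1 at 100 nM (15.9%). ACAT2, FDPS, FDFT1, LSS, HSD17B7, DHCR7, STARD4 and FADS1 were called higher in both comparisons, which share the DMSO arrays. Without the correction of slide 1, 7 genes were called at 50 nM and 5 at 100 nM. With slides 2 and 3 alone, 1 gene was called in each.

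**Figure D1:**
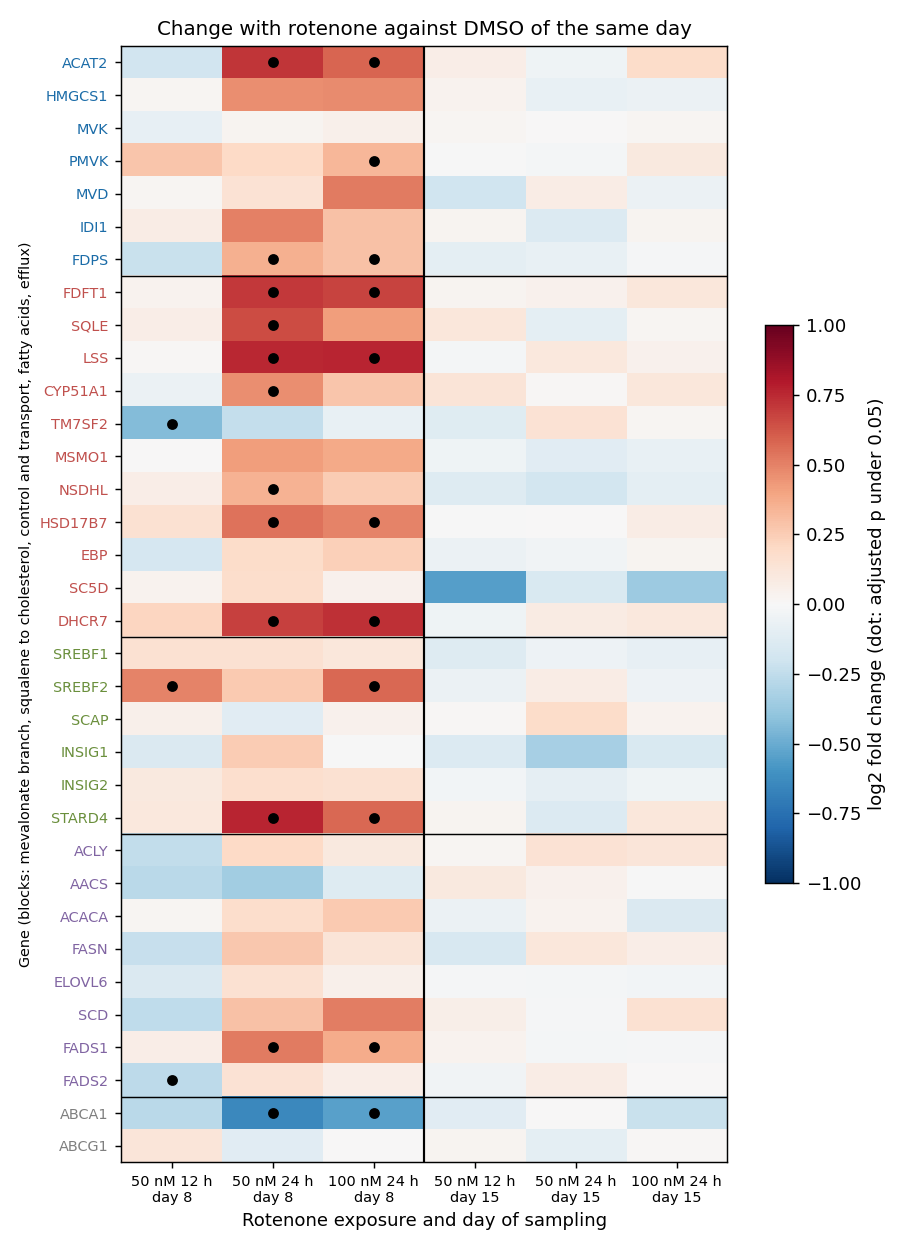
Log2 fold change of the 34 genes (rows, in blocks by role) with each rotenone exposure against DMSO of the same day (columns), on a colour scale from blue (lower) to red (higher), with a dot where the adjusted p was under 0.05. Dots stand in both 24 h columns of day 8, 12 at 50 nM and 11 at 100 nM, 3 stand in the 12 h column and none on day 15.

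The mevalonate branch turns acetyl-CoA into the isoprenoid farnesyl diphosphate. ACAT2, the cytosolic thiolase that joins acetyl-CoA units at the start of the route, read 12.33, 12.15 and 12.40 in the 3 DMSO arrays of day 8, 12.93, 13.08 and 13.01 after 50 nM for 24 h and 12.91, 12.72 and 13.00 after 100 nM. Every exposed array lay above every DMSO array. ACAT2 was higher by 0.71 ± 0.13 at 50 nM (1.64-fold, adjusted p = 0.0017) and by 0.59 ± 0.13 at 100 nM (adjusted p = 0.0063). FDPS, the synthase of farnesyl diphosphate, read 12.53, 12.44 and 12.43 in DMSO, 12.76, 12.90 and 12.80 at 50 nM and 12.73, 12.77 and 12.77 at 100 nM. It was higher by 0.35 ± 0.069 (adjusted p = 0.00301) and by 0.29 ± 0.069 (adjusted p = 0.0104). PMVK, which phosphorylates phosphomevalonate, was called at 100 nM (0.33 ± 0.089, adjusted p = 0.0215) and stood at 0.20 ± 0.089 at 50 nM (adjusted p = 0.214). The PMVK call was lost without DMSO replicate 2 or without 100 nM replicate 2 or 3, at log2 fold changes down to 0.27 and an adjusted p up to 0.11. The remaining genes of the branch did not pass the test. HMGCS1, which condenses acetoacetyl-CoA with acetyl-CoA, stood at 0.47 ± 0.19 and 0.47 ± 0.19, with an adjusted p of 0.166 and 0.146. IDI1, the isopentenyl diphosphate isomerase, stood at 0.50 ± 0.16 at 50 nM (adjusted p = 0.0555, and 0.0158 with the slide as a block) and 0.29 ± 0.16 at 100 nM. MVD, which makes isopentenyl diphosphate, was at 0.15 ± 0.19 and 0.52 ± 0.19. Mevalonate kinase MVK was at 0.03 ± 0.19 and 0.05 ± 0.19. All 7 genes of the branch had positive values in both comparisons.

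FDFT1, SQLE and LSS carry out the committed steps of sterol synthesis, in which squalene is made, oxidised and closed into the ring system of lanosterol. FDFT1, squalene synthase, read 12.62, 12.58 and 12.61 in DMSO, 13.28, 13.43 and 13.23 after 50 nM for 24 h and 13.34, 13.30 and 13.22 after 100 nM. The gap between the DMSO and the exposed arrays was wider than the spread within any of the groups. FDFT1 was higher by 0.71 ± 0.092 at 50 nM (adjusted p = 8.53e-05) and by 0.68 ± 0.092 at 100 nM (adjusted p = 8.88e-05), or 1.63-fold and 1.60-fold. SQLE, squalene epoxidase, read 11.30, 11.51 and 11.09 in DMSO, 11.96, 12.13 and 11.76 at 50 nM and 11.59, 11.90 and 11.67 at 100 nM. Its arrays were apart from DMSO at both levels, and the DMSO arrays of SQLE were spread more widely than those of FDFT1. SQLE was higher at 50 nM (0.65 ± 0.14, adjusted p = 0.00674) and stood at 0.42 ± 0.14 at 100 nM (adjusted p = 0.0718). LSS, lanosterol synthase, read 9.42, 9.52 and 9.54 in DMSO, 10.24, 10.35 and 10.15 at 50 nM and 10.32, 10.10 and 10.33 at 100 nM. It was higher by 0.76 ± 0.10 and by 0.76 ± 0.10 (adjusted p = 0.000114 and 7.93e-05), or 1.69-fold in both. Both LSS probes moved alike, by 0.78 and 0.73 at 100 nM.

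The enzymes between lanosterol and cholesterol remove methyl groups and move or reduce double bonds of the sterol. DHCR7, the reductase of 7-dehydrocholesterol at the end of the route, read 13.00, 12.92 and 13.04 in DMSO, 13.63, 13.75 and 13.63 after 50 nM for 24 h and 13.74, 13.75 and 13.66 after 100 nM. Every exposed array lay above every DMSO array. DHCR7 was higher by 0.68 ± 0.076 (adjusted p = 1.82e-05) and by 0.73 ± 0.076 (adjusted p = 5.39e-06), and it kept its call in both comparisons in all 11 alternative settings. HSD17B7, a sterol ketoreductase, was higher by 0.55 ± 0.095 (adjusted p = 0.00111) and 0.50 ± 0.095 (adjusted p = 0.00197), with its 3 probes between 0.35 and 0.71 at 50 nM. CYP51A1, the lanosterol demethylase, was called at 50 nM (0.46 ± 0.11, adjusted p = 0.0122) and stood at 0.28 ± 0.11 at 100 nM (adjusted p = 0.137). NSDHL, a sterol dehydrogenase, was called at 50 nM (0.35 ± 0.10, adjusted p = 0.0414) and stood at 0.26 ± 0.10 at 100 nM. The CYP51A1 call was lost without DMSO replicate 3 or 50 nM replicate 2, at 0.36 and above. The NSDHL call was lost without any 1 array but DMSO replicate 1, at 0.30 and above. MSMO1, the methylsterol oxidase, stood at 0.42 ± 0.24 and 0.38 ± 0.24 and passed the test only with the slide as a block (adjusted p = 0.0291 and 0.0469). EBP, the sterol isomerase, stood at 0.18 ± 0.076 and 0.24 ± 0.076, and SC5D, a desaturase, at 0.17 ± 0.23 and 0.04 ± 0.23. TM7SF2, a reductase of the sterol ring, was the only gene of this group with negative values, -0.24 ± 0.12 and -0.07 ± 0.12. Of these 11 genes, 7 were called higher at 50 nM and 4 at 100 nM.

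**Figure D2:**
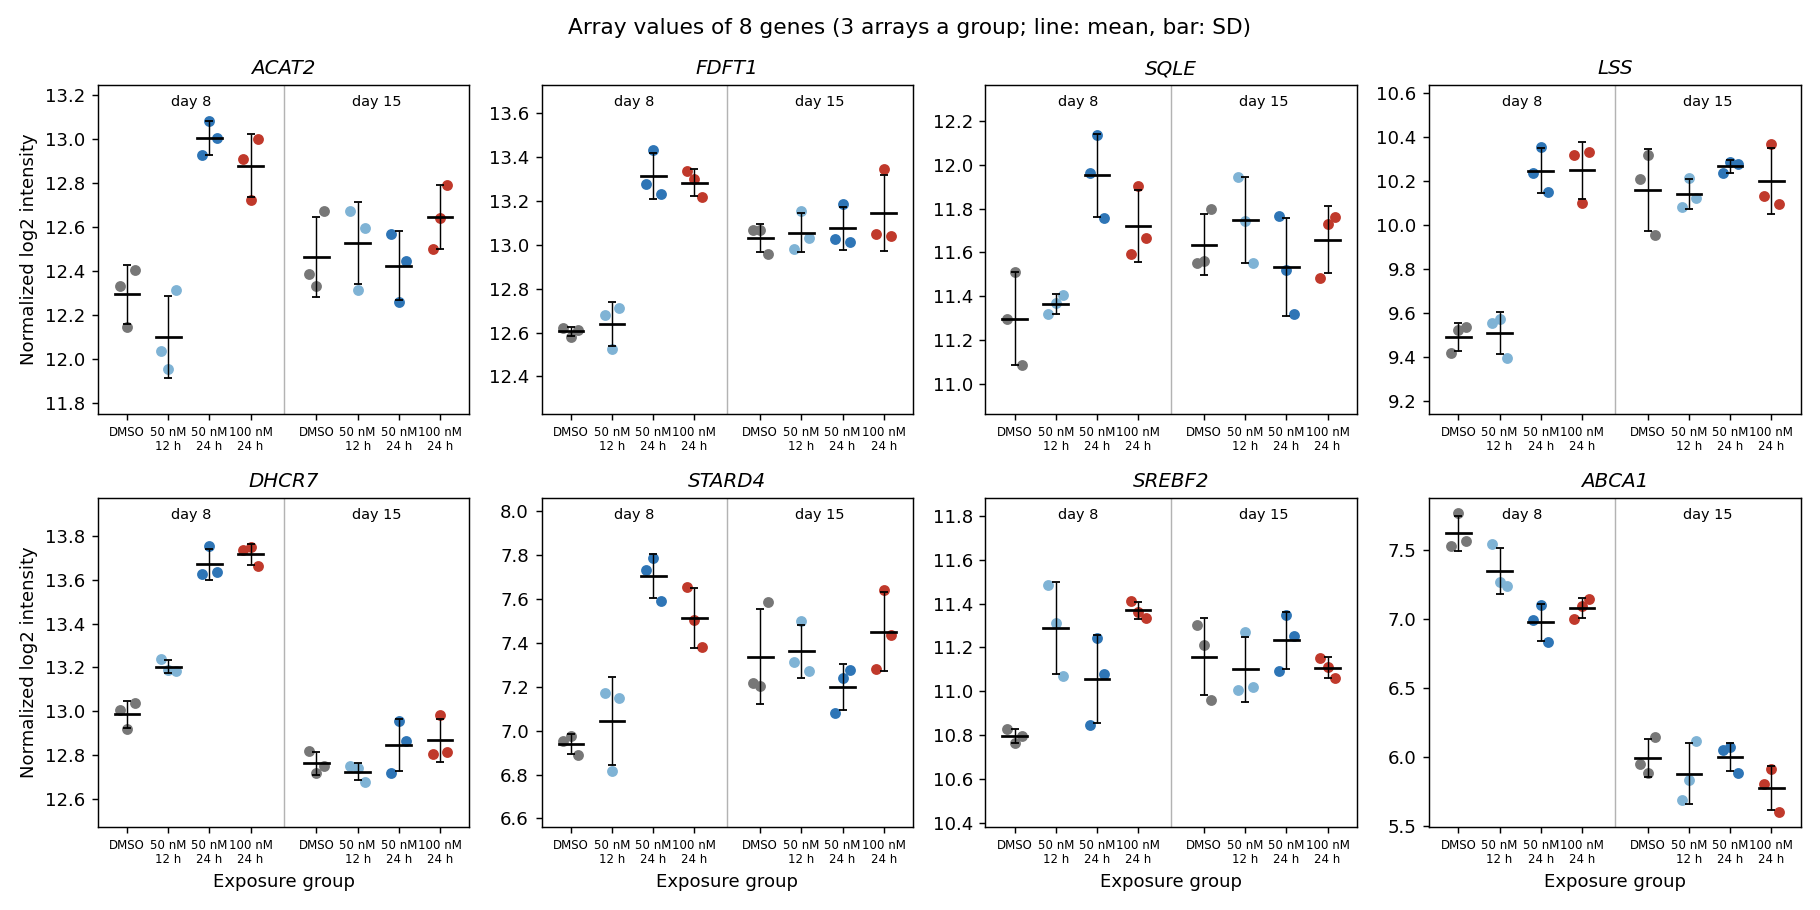
Normalized log2 intensity (vertical axes, each panel with its own range) of 8 genes on every array, in the 4 groups of day 8 and the 4 of day 15, with points for arrays, lines for group means and bars for the SD of 3 arrays. FDFT1, LSS and DHCR7 are apart from DMSO in both 24 h groups of day 8 and overlap or lie close to DMSO on day 15, SREBF2 is apart from DMSO in all exposed groups of day 8, and ABCA1 is lower in the 24 h groups and lower still on day 15.

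Of the 6 genes of control and transport, 1 was higher at 50 nM and 2 at 100 nM. SREBF2 encodes SREBP2, the form that acts mainly on sterol genes. It read 10.83, 10.76 and 10.80 in DMSO, 11.49, 11.31 and 11.07 after 50 nM for 12 h, 10.85, 11.24 and 11.08 after 50 nM for 24 h and 11.41, 11.36 and 11.33 after 100 nM for 24 h. All 9 exposed arrays lay above the highest DMSO array, although the lowest at 50 nM for 24 h did so narrowly. SREBF2 was higher by 0.49 ± 0.12 after 12 h (adjusted p = 0.0184) and by 0.57 ± 0.12 at 100 nM (adjusted p = 0.00402), and it stood at 0.26 ± 0.12 after 50 nM for 24 h (adjusted p = 0.234). It was the only one of the 34 genes called higher at 12 h. That 12 h call was lost without DMSO replicate 2 or 3 or 12 h replicate 1 or 2, at an adjusted p up to 0.105. It was also lost in 3 of 11 alternative settings. STARD4, which moves cholesterol between membranes, read 6.95, 6.98 and 6.89 in DMSO, 7.73, 7.79 and 7.59 after 50 nM for 24 h and 7.65, 7.50 and 7.38 after 100 nM. All exposed arrays lay above DMSO, while those of the 50 nM and 100 nM groups overlapped each other. STARD4 was higher by 0.76 ± 0.12 (1.70-fold, adjusted p = 0.000658) and by 0.57 ± 0.12 (adjusted p = 0.00547). SREBF1, which encodes the form that acts mainly on fatty acid genes, stood at 0.15 ± 0.12 and 0.11 ± 0.12. SCAP was at -0.11 ± 0.10 and 0.04 ± 0.10. INSIG1, itself a target of SREBPs, was at 0.25 ± 0.14 and 0.00 ± 0.14, and INSIG2 at 0.17 ± 0.13 and 0.15 ± 0.13. None of these 4 was called in any comparison.

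Sequence upstream of the transcription start was at hand for 29 of the 34 genes, as 39 windows that RefSeq gives on GRCh38.p14. The 250 bases before each start were searched on both strands for 4 motifs known from promoters of metabolic genes. The sterol regulatory element TCACNCCAC, to which SREBPs bind, was found in 1 gene, SREBF2, and in 0.883% of all 35116 windows. The CCAAT box, bound by NF-Y, was found in 23 of the 39 windows (59.0%) and in 32.0% of all windows. Counted by gene, 19 of the 29 (65.5%) had a CCAAT box in at least 1 window. Of the 10 of them that were called higher after 24 h in at least 1 comparison, 7 had one, a share close to that of the 29. PMVK, CYP51A1 and FADS1 had none. The GC box GGGCGG, bound by Sp1, was found in 35 of 39 (89.7%) and in 42.6% of all. The E box CACGTG, to which SREBPs also bind, was found in 5 of 39 (12.8%) and in 6.34% of all. These are matches of letters and no measurement of binding, and a window without a match says only that those letters are not in it. The promoters of 5 genes that were higher after 24 h are shown 5′ to 3′ as examples that hold a CCAAT box, with the sterol regulatory element (SREBF2 only) and the CCAAT boxes of either strand (CCAAT or ATTGG) in capitals. The last base is the one before the start.
SREBF2, chr22:41832855-41833104 (plus strand): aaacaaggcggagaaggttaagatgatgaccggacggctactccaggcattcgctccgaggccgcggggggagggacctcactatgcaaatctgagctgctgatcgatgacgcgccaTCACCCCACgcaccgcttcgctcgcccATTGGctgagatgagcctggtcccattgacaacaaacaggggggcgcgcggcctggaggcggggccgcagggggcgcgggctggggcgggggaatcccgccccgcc
FDPS, chr1:155308616-155308865 (plus strand): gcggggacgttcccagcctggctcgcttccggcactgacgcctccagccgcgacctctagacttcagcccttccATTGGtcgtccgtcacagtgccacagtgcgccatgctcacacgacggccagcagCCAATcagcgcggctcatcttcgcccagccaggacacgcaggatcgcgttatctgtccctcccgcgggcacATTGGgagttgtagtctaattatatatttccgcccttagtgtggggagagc
LSS, chr21:46228775-46229024 (minus strand): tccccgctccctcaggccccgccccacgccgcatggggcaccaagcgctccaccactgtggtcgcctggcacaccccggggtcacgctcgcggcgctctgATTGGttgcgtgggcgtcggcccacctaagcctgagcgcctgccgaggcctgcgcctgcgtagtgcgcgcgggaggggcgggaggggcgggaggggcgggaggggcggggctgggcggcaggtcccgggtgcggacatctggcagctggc
DHCR7, chr11:71448394-71448643 (minus strand): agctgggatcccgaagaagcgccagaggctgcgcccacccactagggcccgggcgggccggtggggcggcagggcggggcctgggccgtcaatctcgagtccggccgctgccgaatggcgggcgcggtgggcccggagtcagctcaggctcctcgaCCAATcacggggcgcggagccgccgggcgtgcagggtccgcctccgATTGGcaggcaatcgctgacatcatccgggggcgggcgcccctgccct
STARD4, chr5:111512536-111512785 (minus strand): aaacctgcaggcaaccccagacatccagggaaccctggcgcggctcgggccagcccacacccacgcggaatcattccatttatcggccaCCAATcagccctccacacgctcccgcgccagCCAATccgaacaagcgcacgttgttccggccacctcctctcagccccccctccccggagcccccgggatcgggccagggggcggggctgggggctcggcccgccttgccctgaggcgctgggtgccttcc
In SREBF2 the element began 133 bases before the start and the CCAAT box 106 bases before it. FDPS had 3 CCAAT boxes, STARD4 and DHCR7 had 2 each and LSS had 1. DHCR7 has another window in the table, for a different start, without a CCAAT box.

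Of the 8 fatty acid genes, 1 was called higher at each rotenone level after 24 h. It was FADS1, the desaturase that makes arachidonic and eicosapentaenoic acid. FADS1 read 11.60, 11.66 and 11.50 in DMSO, 12.27, 12.06 and 11.98 after 50 nM for 24 h and 12.00, 12.00 and 11.89 after 100 nM. It was higher by 0.52 ± 0.087 (adjusted p = 0.000855) and by 0.37 ± 0.087 (adjusted p = 0.00884). FADS2, the desaturase at the preceding step, stood at 0.14 ± 0.070 and 0.06 ± 0.070. ACLY, which supplies cytosolic acetyl-CoA from citrate, stood at 0.20 ± 0.16 and 0.10 ± 0.16. ACACA, the carboxylase that makes malonyl-CoA, was at 0.18 ± 0.12 and 0.26 ± 0.12, and FASN, fatty acid synthase, at 0.27 ± 0.15 and 0.13 ± 0.15. The elongase ELOVL6 was at 0.15 ± 0.16 and 0.05 ± 0.16. SCD, the desaturase that makes oleic acid, was at 0.29 ± 0.19 at 50 nM and 0.51 ± 0.19 at 100 nM (adjusted p = 0.0984, and 0.0176 with the slide as a block). AACS, which activates acetoacetate, was the only gene of this group with negative values, -0.35 ± 0.11 and -0.13 ± 0.11. The median of the 8 genes was 0.19 at 50 nM and 0.11 at 100 nM, against 0.46 and 0.38 for the 11 genes from squalene to cholesterol.

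ABCA1 and ABCG1 export cholesterol to lipoproteins and are known as targets of the oxysterol receptors (LXRs). ABCA1 read 7.53, 7.77 and 7.56 in DMSO, 7.54, 7.27 and 7.24 after 12 h of 50 nM, 6.99, 7.10 and 6.83 after 24 h of 50 nM and 7.00, 7.10 and 7.14 after 24 h of 100 nM. The 24 h arrays lay below every DMSO array, while 1 of the 12 h arrays lay within their range. ABCA1 was lower, at -0.64 ± 0.12 with 50 nM (adjusted p = 0.0025) and -0.54 ± 0.12 with 100 nM (adjusted p = 0.00776), the only gene of the 34 called lower. Its 2 probes differed in size, with -0.85 ± 0.14 and -0.44 ± 0.21 at 50 nM and -0.82 ± 0.14 and -0.26 ± 0.21 at 100 nM. Of 11 alternative settings, the ABCA1 call was lost in 2 at 50 nM and in 3 at 100 nM. ABCG1 stood at -0.11 ± 0.11 and 0.00 ± 0.11.

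The 12 h exposure to 50 nM was the shortest of those measured on day 8. After 12 h, 1 gene was higher (SREBF2), where 2.67% of all genes were, and 2 were lower, where 2.85% were. The lower ones were TM7SF2 (-0.44 ± 0.12, adjusted p = 0.0418, and 0.0703 with the slide as a block) and FADS2 (-0.26 ± 0.070, adjusted p = 0.0331). Without DMSO replicate 2 or 3 none of the 34 was called, without DMSO replicate 1 or 12 h replicate 1 or 3 it was 1 gene, and without the correction of slide 1 it was 0. The arrays of the groups did not overlap for 3 genes that were higher (10.5% of all genes) and 5 that were lower (13.1%). The median of the 34 genes at 12 h was 0.02. In the direct comparison of 24 h with 12 h of 50 nM, which uses no DMSO array, 10 of 34 genes were higher and 0 lower by limma's adjusted p. Of all genes, 0.268% were higher and 0.264% were lower, that is 57 and 56 genes, and the 10 are among the 57. At an unadjusted p under 0.05, 19 genes were higher and 1 was lower, against 4.78% and 6.09% of all genes. The median difference was 0.39. ACAT2, at 12.04, 11.95 and 12.31 after 12 h, differed by 0.90 ± 0.13 (adjusted p = 0.00238). FDPS read 12.27, 12.30 and 12.15 after 12 h, below every DMSO array, and differed by 0.58 ± 0.069 (adjusted p = 0.000643). Its change against DMSO was -0.22 ± 0.069 at 12 h (adjusted p = 0.0671). FDFT1, at 12.68, 12.52 and 12.71 after 12 h, differed by 0.68 ± 0.092, and LSS, at 9.55, 9.57 and 9.40, by 0.74 ± 0.10 (adjusted p = 0.00178 and 0.00182). In both genes the 12 h arrays overlapped DMSO. DHCR7 read 13.24, 13.19 and 13.18 after 12 h, above DMSO and below 24 h, and differed by 0.47 ± 0.076 (adjusted p = 0.00606).

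STARD4 (0.66 ± 0.12), CYP51A1 (0.52 ± 0.11), FADS1 (0.45 ± 0.087), FADS2 (0.40 ± 0.070) and EBP (0.35 ± 0.076) were also higher at 24 h than at 12 h of 50 nM, with adjusted p between 0.00962 and 0.0429. With the slide as a block, CYP51A1 and EBP were no longer called (adjusted p = 0.0515 and 0.0637), and HSD17B7 was (0.0335). SREBF2 had the opposite sign, -0.23 ± 0.12 (adjusted p = 0.508). The EBP call was lost without any one of the 6 arrays (adjusted p up to 0.161), and that of CYP51A1 without 12 h replicate 2 or any 24 h replicate (up to 0.167). STARD4 and FADS1 were each lost without 3 of the 6 arrays (up to 0.0949 and 0.123) and FADS2 without 2 (up to 0.0673), while ACAT2, FDPS, FDFT1, LSS and DHCR7 were called in every such fit. Without 50 nM 24 h replicate 1 the count of called genes was 6, and without replicate 2 it was 5. It was 1 without the correction of slide 1 and 0 when only slides 2 and 3 or only the 6 arrays were fitted. All 10 differences kept their sign in these fits. Between 100 nM and 50 nM at 24 h, 0 of 34 genes were called by limma, as were 0.00% of all genes, and 1 was higher and 0 lower at an unadjusted p under 0.05, against 2.22% and 1.96% of all genes. It was SREBF2, at 0.31 ± 0.12 (95% interval 0.06 to 0.56, unadjusted p = 0.0168). The intervals were -0.11 to 0.20 for DHCR7, -0.21 to 0.22 for LSS and -0.45 to 0.07 for STARD4.

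**Figure D3:**
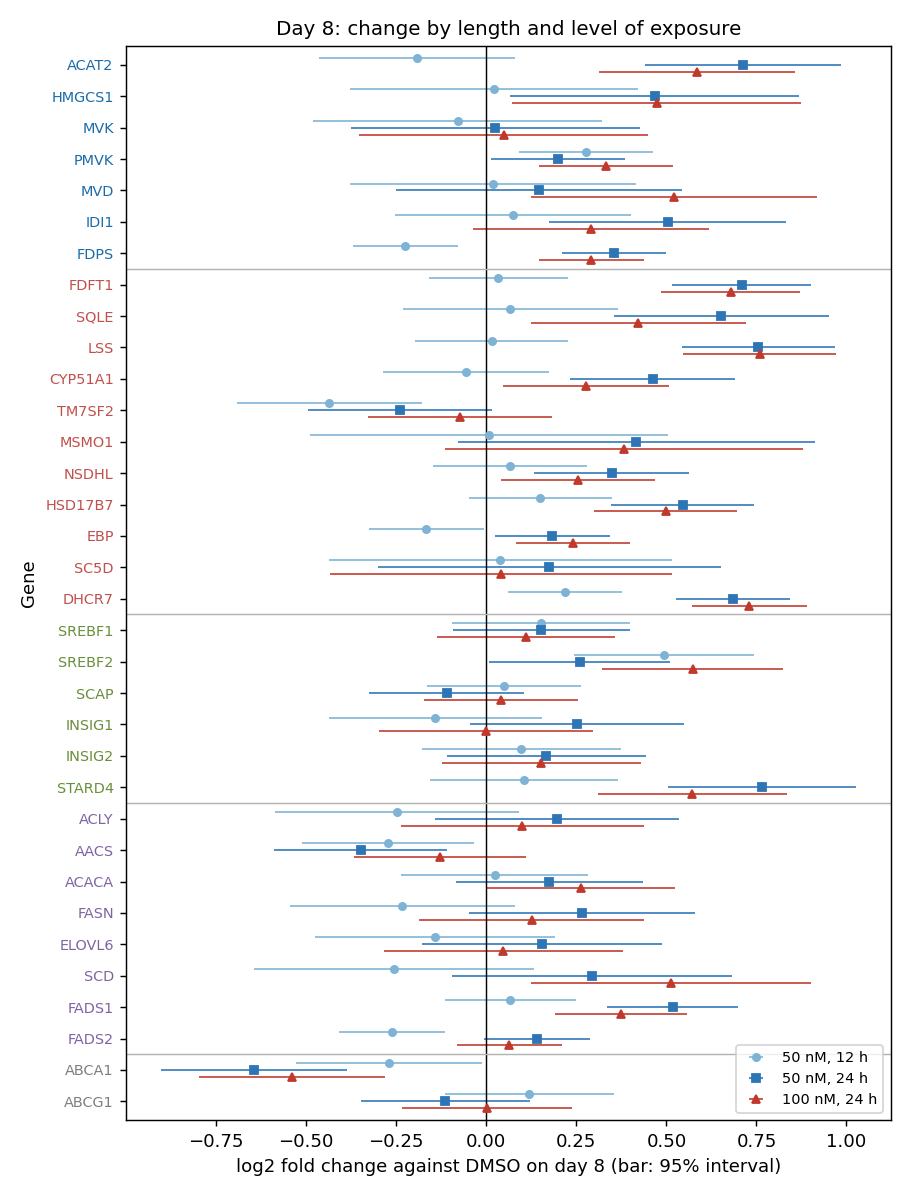
Log2 fold change against DMSO on day 8 (horizontal axis, points with 95% intervals) of the 34 genes (rows, in blocks by role) after rotenone (12 h or 24 h of 50 nM, and 24 h of 100 nM). For most sterol genes the 12 h point is near 0 and both 24 h points are to its right, with medians over the 34 genes of 0.02, 0.26 and 0.27, while SREBF2 is to the right of 0 at 12 h too and ABCA1 is to the left.

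Other genes of lipid metabolism, from lists outside the 34, were also measured. Of all genes, 3.65% were called higher and 4.36% lower after 50 nM for 24 h, and 4.09% and 5.44% after 100 nM. Of 11 further lipid genes known as SREBP targets, 3 were higher after 50 nM for 24 h and 2 after 100 nM, with none lower. They were ACSS2, which makes acetyl-CoA from acetate (0.77 ± 0.12 and 0.74 ± 0.12), PCYT2, of phosphatidylethanolamine synthesis (0.78 ± 0.088 and 0.90 ± 0.088), and at 50 nM the lipase PNPLA3 (0.38 ± 0.11). Of 14 genes of sterol trafficking, storage and turnover, 4 were higher at 50 nM and 2 at 100 nM, with none lower. NPC2, which hands cholesterol out of lysosomes, was higher by 0.90 ± 0.11 and 0.75 ± 0.11, and TMEM97, which binds NPC1, by 0.55 ± 0.10 and 0.45 ± 0.10. NPC1, the membrane partner of NPC2, and the lysosomal lipase LIPA were higher at 50 nM only (0.38 ± 0.099 and 0.46 ± 0.096). Of 8 genes that process SREBPs or sense sterol, none was called at 24 h by limma. At limma's unadjusted p under 0.05, 2 were higher and 1 lower at 100 nM, against 1853 and 2517 of all 21235 genes. At 50 nM there were 0, against 1804 higher and 2366 lower of all genes. Of 9 genes of other isoprenoid branches, only the dolichol kinase DOLK was called, lower at -0.23 ± 0.068 and -0.22 ± 0.068. Of 6 genes of LXR and its targets, MYLIP was higher at 50 nM (0.42 ± 0.12) and LPCAT3 lower at 100 nM (-0.25 ± 0.076). Of 5 genes of ketone body use, OXCT1 was higher at both levels (0.70 ± 0.14 and 0.49 ± 0.14) and ACAT1 at 50 nM (0.34 ± 0.10). After 50 nM for 12 h, 2 of the 14 trafficking genes and 1 of the 11 further SREBP targets were called higher, and 0 lower. In the lists of SREBP processing, isoprenoid branches and LXR, 1 gene each was lower and 0 higher, and no ketone gene was called. Of all genes, 2.67% were higher and 2.85% lower at 12 h.

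A few cell markers were called after the 24 h exposure on day 8. Across all genes, 3.65% were called higher and 4.36% lower at 50 nM, and 4.09% and 5.44% at 100 nM. Of 5 neuronal markers, MAP2 was lower at both levels (-0.49 ± 0.11 and -0.57 ± 0.11) and SNAP25 at 100 nM (-0.30 ± 0.090). The mean level of the 5 ranged from 13.59 to 13.81 in DMSO, from 13.54 to 13.67 at 50 nM and from 13.50 to 13.57 at 100 nM. Of 5 precursor markers, VIM was higher at 100 nM (0.42 ± 0.12). None of the 5 markers of dividing cells and 5 of dopaminergic neurons was called after 24 h on day 8. The same held for the 5 astrocyte, 4 oligodendrocyte and 4 microglial markers. Of the astrocyte markers, GFAP and AQP4 were not well above background on any array of day 8, while ALDH1L1, S100B and GJA1 were on part of them. The part of the marker differences in the sterol results was not tested.

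On day 15, with the rotenone washed out, none of the 34 genes was called by limma in any of the 3 comparisons, in which 0.00% of all genes were called. At an unadjusted p under 0.05, none was higher, where 2.27% of all genes were after 100 nM, 1.72% after 50 nM for 24 h and 1.51% after 50 nM for 12 h. By the same measure 0 were lower after 100 nM (4.91% of all genes), 1 after 50 nM for 24 h (INSIG1, -0.33 ± 0.14, 1.56%) and 1 after 50 nM for 12 h (SC5D, -0.55 ± 0.23, 1.96%). No gene of the 34 had all exposed arrays above DMSO, where 3.02%, 3.69% and 3.08% of all genes did. All exposed arrays lay below DMSO in 0 genes after 100 nM (4.82% of all genes), in 1 after 50 nM for 24 h (FDPS, 3.44%) and in 3 after 50 nM for 12 h (FDPS, MVD and TM7SF2, 4.35%). The median log2 fold changes of the 34 genes were 0.02 after 100 nM, -0.01 after 50 nM for 24 h and -0.02 after 50 nM for 12 h. FDFT1 read 13.07, 13.07 and 12.96 in DMSO of day 15, 13.03, 13.19 and 13.01 after 50 nM for 24 h and 13.05, 13.35 and 13.04 after 100 nM. LSS read 10.21, 10.32 and 9.95, 10.24, 10.29 and 10.28 and 10.13, 10.37 and 10.10, and DHCR7 read 12.82, 12.72 and 12.75, 12.72, 12.96 and 12.86 and 12.81, 12.98 and 12.82. In all 3 genes the exposed arrays overlapped those of DMSO. The 95% intervals after 100 nM were -0.08 to 0.31 for FDFT1, -0.17 to 0.25 for LSS and -0.05 to 0.26 for DHCR7, and their upper ends lay below the day 8 estimates of the same genes. The arrays of ACAT2 spanned 12.33 to 12.67 in DMSO and 12.26 to 12.79 after the 24 h exposures, those of STARD4 7.20 to 7.59 and 7.08 to 7.64, those of SQLE 11.55 to 11.80 and 11.32 to 11.77, those of SREBF2 10.96 to 11.30 and 11.06 to 11.35, and those of ABCA1 5.88 to 6.15 and 5.60 to 6.07.

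The difference between the days was tested directly, as the change with rotenone on day 15 minus that on day 8. For 100 nM, 3 of 34 genes had a smaller change on day 15, where 1.29% of all genes were lower by this measure, and 0 had a larger one, where 1.17% were higher. They were DHCR7 (-0.63 ± 0.11, adjusted p = 0.00297), LSS (-0.72 ± 0.14, adjusted p = 0.0091) and FDFT1 (-0.57 ± 0.13, adjusted p = 0.0238). The FDFT1 difference was not called when any of 7 of the 12 arrays was left out (adjusted p up to 0.0722), while those of LSS and DHCR7 were called in all 12 such fits. The count was 2 without DMSO replicate 2 of day 8 and 0 without the correction of slide 1. For 50 nM for 24 h, 8 genes were lower by this measure (1.03% of all genes) and 0 higher (1.16%), a comparison that was added after the data were seen. Apart from the fit with the slide as a block, this comparison was not recomputed in the alternatives or without single arrays. They were ACAT2, FDPS, FDFT1, LSS, HSD17B7, DHCR7, STARD4 and FADS1, from -0.90 for STARD4 to -0.43 for FDPS. NSDHL (-0.53 ± 0.14) was added with the slide as a block (adjusted p = 0.0328). Of the genes called on day 8, SQLE stood at -0.75 ± 0.20 for 50 nM (adjusted p = 0.058), SREBF2 at -0.62 ± 0.17 for 100 nM (adjusted p = 0.0591), and ABCA1 at 0.65 ± 0.17 for 50 nM (adjusted p = 0.0583).

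In DMSO alone, the genes of the pathway parted between day 8 and day 15: 8 of 34 were higher on day 15, where 10.1% of all genes were, and 7 were lower, where 13.3% were. In the mevalonate branch 3 of 7 genes were higher and 0 lower, with MVD at 0.88 ± 0.19 (adjusted p = 0.00204), FDPS at 0.61 ± 0.069 (adjusted p = 2.16e-06) and PMVK at 0.40 ± 0.089 (adjusted p = 0.00266). FDPS read 12.53, 12.44 and 12.43 on day 8 and 13.08, 13.09 and 13.08 on day 15, and MVD read 8.92, 8.83 and 8.70 and 9.69, 9.64 and 9.75. The arrays of the days were apart in both genes. Among the genes from squalene onward, LSS (0.67 ± 0.10), FDFT1 (0.43 ± 0.092) and HSD17B7 (0.30 ± 0.095) were higher, and TM7SF2 (-0.36 ± 0.12), EBP (-0.24 ± 0.076) and DHCR7 (-0.22 ± 0.076) were lower. STARD4 (0.40 ± 0.12) and SREBF2 (0.36 ± 0.12) were higher. The calls of HSD17B7, EBP, DHCR7, TM7SF2, STARD4, SREBF2 and ABCG1 were each lost without at least 2 of the 6 arrays, with adjusted p up to 0.161 and no change of sign. TM7SF2 was also not called with the slide as a block (adjusted p = 0.0641), while HMGCS1, IDI1, MSMO1 and SCD were called higher only with the block.

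FADS1, FADS2 and both efflux genes were lower on day 15, while SCD stood at 0.42 ± 0.19 and did not pass the test without the block (adjusted p = 0.119). FADS2 read 13.68, 13.68 and 13.76 on day 8 and 12.92, 13.00 and 12.87 on day 15, and FADS1 read 11.60, 11.66 and 11.50 and 10.96, 11.09 and 11.11. The days were apart in both. FADS2 was lower, at -0.78 ± 0.070 (adjusted p = 1.15e-07), and so was FADS1, at -0.53 ± 0.087 (adjusted p = 0.000149). ABCA1 read 7.53, 7.77 and 7.56 on day 8 and 5.95, 5.88 and 6.15 on day 15, and was lower, at -1.63 ± 0.12 (adjusted p = 1.18e-08), to 0.324 of its day 8 level. Its 2 probes differed in size, at -2.16 and -1.10. Over the alternative settings, the value of the gene ranged from -2.16 to -1.16. ABCG1 was lower, at -0.34 ± 0.11 (adjusted p = 0.0333). Of the 8 genes that were higher in both 24 h comparisons, 5 were higher and 2 (DHCR7 and FADS1) were lower on day 15 in DMSO. The count of called genes was 7 without the correction of slide 1, 5 on slides 2 and 3 alone and 9 without DMSO replicate 3 of day 8. Some cell markers were also called between the days, where 10.1% of all genes were higher and 13.3% lower. Of 5 markers of dividing cells, 4 were lower, and their mean level ranged from 6.39 to 7.14 on day 8 and from 5.45 to 5.62 on day 15. TOP2A was well above background on all DMSO arrays of day 8 and on 0 of day 15. TH fell by 2.94, SLC6A3 fell by 2.06, and NR4A2 was higher by 1.57. The largest marker difference was that of OLIG2, from the oligodendrocyte list and also known from precursors, at -4.00 ± 0.18 (adjusted p = 1.07e-11), while the other 3 measured markers of that list, MBP, MOG and MAG, did not pass the test. The mean of the 4 ranged from 6.26 to 6.41 on day 8 and from 5.45 to 5.67 on day 15. Of the astrocyte markers 1 was lower (GJA1, -0.87 ± 0.30, well above background on 1 DMSO array of day 8 and 0 of day 15), and that list ranged from 4.11 to 4.53 and from 4.12 to 4.39. Of the precursor markers 1 was higher (VIM, 0.67 ± 0.12), and the list ranged from 7.32 to 7.40 and from 7.45 to 7.69. Among the neuronal markers MAP2 was lower (-0.46 ± 0.11) and SNAP25 higher (0.29 ± 0.090), and the list ranged from 13.59 to 13.81 and from 13.70 to 13.89. None of 4 microglial markers was called. Their part in the sterol differences was not tested.

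**Figure D4:**
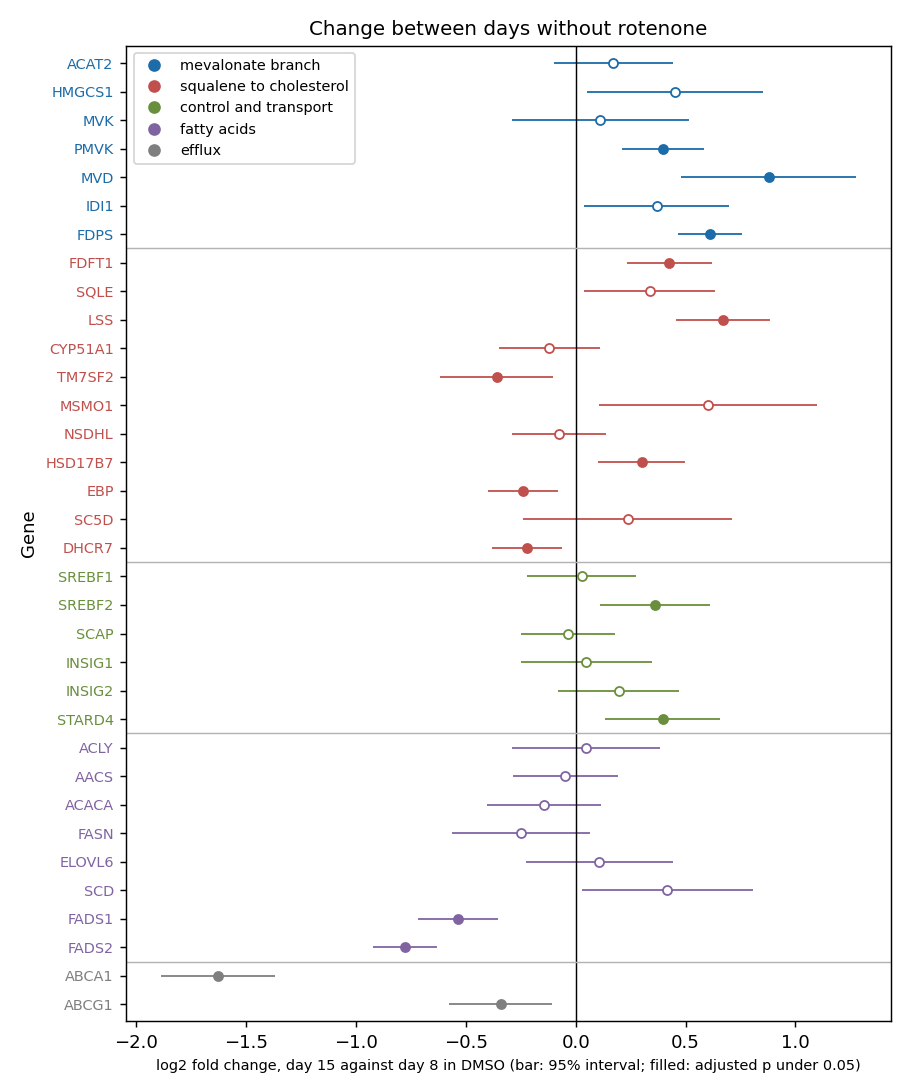
Log2 fold change between day 15 and day 8 in DMSO (horizontal axis, points with 95% intervals) of the 34 genes (rows, coloured by role), filled where the adjusted p was under 0.05. Filled points lie on both sides of 0, 8 to the right, most of them in the sterol blocks, and 7 to the left, with ABCA1 farthest at -1.63.

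Genes that did not pass the test against DMSO in any exposure, nor between days in DMSO, numbered 15. They were HMGCS1, MVK, IDI1, MSMO1, SC5D, SREBF1, SCAP, INSIG1, INSIG2, ACLY, AACS, ACACA, FASN, ELOVL6 and SCD. Their SE ranged from 0.10 for SCAP to 0.24 for MSMO1, against 0.069 for FDPS. A missed threshold in these genes does not show that they did not differ.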

How the data were processed

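RNA of 24 wells was measured on single-colour Agilent 8x60K human arrays. The authors deposited, per the file headers, the median intensity of each spot and of its local background, a processed intensity after the scanner software's own background subtraction, and marks (other) for spots that were outliers, saturated or well above background. They also deposited a table of log2 values that they normalized, averaged and filtered, which holds 33 of the 34 genes and was used as an alternative. Slides 1 and 3 were read with Feature Extraction 11.5.1.1, which the submitters' processing notes name along with R 3.5, whereas the headers of slide 2 give 12.0.0.7.

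The steps followed the study's methods. Median intensities were background-corrected with normexp (offset 0) and quantile normalized in limma 3.58.1 (R 4.3.3). Slide 1 was then corrected against slides 2 and 3 by parametric ComBat, which was written out and tested on simulated data. The methods describe a batch of arrays run at another time and washed differently, without naming them. Slide 1 was taken as that batch. A spot was kept where its signal on 3 or more arrays was over the negative controls' 95th percentile multiplied by 1.1, flagged values were set to missing, and spots and then probes were averaged. Probes were named by RefSeq accession (GRCh38.p14), which named 29385 of 48291 probes. All 8 groups entered 1 limma fit (16 residual and 2.44 prior degrees of freedom), and p values are two-sided. The number of arrays limits the precision.

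Groups and replicate numbers came from the labels. Same-numbered samples shared a slide: before ComBat, the deviations from the group means of same-numbered arrays correlated in all 84 pairs, at 0.17 or above (median 0.46), while 168 pairs of unlike number had a median of -0.36. After ComBat, the median was 0.02 for same-numbered pairs (-0.44 to 0.58) and -0.01 for pairs of unlike number (-0.56 to 0.61). The fit with the slide as a block was an alternative, since the methods use none. Replicates were wells, and each replicate number lay on its own slide. The p values therefore measure the spread between wells and slides together, after the correction of slide 1. The degrees of freedom were not lowered for that correction.

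The genes and lists were chosen with earlier results of these data known. Values per array are given for genes with an adjusted p under 0.05 and a fold change over 1.5 in a comparison with DMSO, and for a few others (FDPS, SREBF2, FADS1, FADS2 and MVD) that were added after their values were seen. Alternatives were other background corrections, scalings, filters and probe choices, no batch correction, fewer slides or arrays, the authors' log2 table and leaving out each array. Promoters were searched with Python 3.11.15 and pandas 2.3.3, and figures were drawn with matplotlib 3.10.9.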

Additional observations from a re-analysis of the deposited data

Results flagged for a closer look

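The change of 8 genes with rotenone differed between the days, by a test of the difference itself (the change on day 15 minus that on day 8, in limma's fit of all arrays). For 100 nM for 24 h, DHCR7 stood at -0.63 ± 0.11 (adjusted p = 0.00297), LSS at -0.72 ± 0.14 (adjusted p = 0.0091) and FDFT1 at -0.57 ± 0.13 (adjusted p = 0.0238). For 50 nM for 24 h, where the test was added after the data were seen, STARD4 stood at -0.90 ± 0.18, ACAT2 at -0.75 ± 0.18, FDFT1 at -0.66 ± 0.13, LSS at -0.65 ± 0.14, DHCR7 at -0.60 ± 0.11, HSD17B7 at -0.54 ± 0.13, FADS1 at -0.53 ± 0.12 and FDPS at -0.43 ± 0.098, with adjusted p from 0.00588 (DHCR7) to 0.0398 (HSD17B7). The calls of DHCR7, LSS and FDFT1 for 100 nM were each lost in 3 of 11 alternative settings. Those for 50 nM were recomputed only with the slide as a block. The comparisons of each day share the DMSO arrays of that day, and 5 of these genes (FDPS, FDFT1, LSS, HSD17B7 and STARD4) were also higher on day 15 than on day 8 in DMSO.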

How the results depend on the processing

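No alternative turned the sign of a call: of 936 recomputed calls of single genes, 730 held, 206 lost the threshold and 0 reversed. Only reported calls were recomputed, on all or part of the same arrays, and those of the difference between days for 50 nM were not among them. Fitting only the arrays compared left their fold changes unchanged. A reversal of sign was therefore unlikely in advance. Counts of called genes are given in the order 100 nM for 24 h, 50 nM for 24 h, 50 nM for 12 h, DMSO between days, 24 h against 12 h, and the difference between days for 100 nM, where the reported counts were 11, 12, 3, 15, 10 and 3. Without batch correction they were 5, 7, 0, 7, 1 and 0. On slides 2 and 3 alone they were 1, 1, 0, 5, 0 and 0. With only the arrays compared in the fit they were 7, 6, 0, 8, 0 and 0. With the processed signal the last count was 7, with an offset of 50 it was 6 and the 12 h count 7, and with 75th percentile scaling it was 5. With the authors' values, which lack ELOVL6, the counts for 100 nM, 12 h and the difference between days were 17, 5 and 5. Leaving out single arrays gave 10 to 12, 10 to 12, 0 to 2, 9 to 13, 5 to 9 and 2 to 4, and 0 to 0 in the comparisons of day 15 and of the levels, where the reported count was 0. The count between days was 9 without DMSO replicate 3 of day 8, and that of 24 h against 12 h was 6 and 5 without 50 nM 24 h replicate 1 and 2. With the slide as a replicate block the counts of higher and lower genes were 12 and 1 (100 nM), 13 and 1 (50 nM for 24 h), 1 and 1 (12 h), 12 and 6 (between days) and 9 and 0 (24 h against 12 h), and 3 genes differed between days for 100 nM; calls that changed are named with their genes, and no other call changed. The processed signal moved the median of all genes to 0.10 (100 nM, day 8) and 0.15 (between days), and 75th percentile scaling moved it to 0.14 in the difference between days, while over the settings with all replicates the median of the 34 genes was 0.26 to 0.34 at 100 nM and 0.25 to 0.39 at 50 nM for 24 h. Leaving out single arrays gave medians down to 0.24 at 100 nM (without DMSO replicate 3) and 0.19 at 50 nM (without 50 nM 24 h replicate 2). The causes were not tested.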
